A study of Bos taurus with 6 samples.

Results

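A block of 19 of the 21070 genes with expression values, around the mitochondrial 16S rRNA, was followed in bull sperm. Only 12 of the 19 had the length of a mitochondrial rRNA or protein gene. The 19 genes are the rows whose Ensembl identifiers run from ENSBTAG00000043544 to ENSBTAG00000043584, a range of 41 possible identifiers that holds the mitochondrial 16S rRNA (ENSBTAG00000043570). The range was chosen by the FPKM of the 16S rRNA in both bulls, since it was the 1 gene of 19339 tested, 0.00517%, with an adjusted p-value under 0.05 in limma when the replicate number was a block. The difference of the 16S rRNA between the bulls is therefore given as a description, without a test. Sperm RNA came from a pair of monozygotic twin Holstein bulls with different fertility, Bull1 and Bull2, and each bull gave 3 replicate libraries. The labels give no treatment and no age for these samples. The sperm were cleaned of somatic cells on Percoll, and their RNA was amplified with Smart-seq2, a protocol that copies polyadenylated RNA from very small inputs, before sequencing with paired reads of 250 bases. Each bull is 1 animal. The authors describe the RNA extraction as 3 replicates per sample, and nothing in the labels says that they came from separate ejaculates. The p-values therefore measure only the spread between these libraries, which may be technical. Markers of sperm and of somatic cells were not checked, because the files give identifiers without symbols and 0 of them matched the reference gene table.

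Mitochondria carry a small circular genome that encodes 2 rRNAs, 22 tRNAs and 13 proteins, all of the proteins being subunits of the respiratory chain or of ATP synthase. The genome is transcribed as long precursors, which are cut mostly at the tRNAs that lie between the other genes. The mRNAs and, to a lesser extent, the rRNAs of mammals receive short poly(A) tails. In sperm the mitochondria are wrapped around the midpiece of the flagellum.

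The FPKM of a gene (fragments per kilobase of gene, scaled to the reads of the library) are whole multiples of what 1 read is worth, so gene lengths and read numbers could be recovered from them. The libraries held 486638 to 681933 reads counted on genes. The recovered lengths of 12 of the 19 genes were those of a bovine mitochondrial rRNA or protein gene in the RefSeq annotation of ARS-UCD2.0, whereas 86 of the other 21051 genes, 0.409%, had such a length. These 12 genes are named here by their lengths. Both rRNAs were among them, the 12S rRNA (ENSBTAG00000043567) at 955 bp and the 16S rRNA at 1571 bp. The genes of complex I, the NADH dehydrogenase, were ND1 (ENSBTAG00000043558) at 956 bp, ND2 (ENSBTAG00000043571) at 1042 bp, ND4 (ENSBTAG00000043577) at 1378 bp, ND5 (ENSBTAG00000043563) at 1821 bp and ND6 (ENSBTAG00000043546) at 528 bp. CYTB (ENSBTAG00000043550), the cytochrome b of complex III, was found at 1140 bp. The genes of complex IV, the cytochrome c oxidase, were COX1 (ENSBTAG00000043561) at 1545 bp, COX2 (ENSBTAG00000043556) at 684 bp and COX3 (ENSBTAG00000043560) at 781 bp. ATP6 (ENSBTAG00000043584), a subunit of ATP synthase, was found at 681 bp. No gene of the range had the length of ATP8, ND3 or ND4L, and the genes elsewhere with those lengths, which numbered 1, 4 and 9, could not be told from nuclear genes of the same length. The nuclear genome holds copies of mitochondrial sequence and some mitochondrial genes overlap (ATP6 with COX3, ND5 with ND6), so the reads of such genes can be split or dropped in counting.

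The 19 genes took up more of the Bull1 libraries than of the Bull2 libraries. They held 2.09% of the reads of Bull1 replicate 1 (13290 reads, exact binomial interval at 95%, 2.05 to 2.12%), 1.11% of replicate 2 (6306 reads, 1.08 to 1.13%) and 2.48% of replicate 3 (16885 reads, 2.44 to 2.51%). In Bull2 the share was 0.577% in replicate 1 (3694 reads, 0.558 to 0.595%), 0.320% in replicate 2 (1866 reads, 0.306 to 0.335%) and 0.530% in replicate 3 (2577 reads, 0.509 to 0.550%). The intervals cover the counting of reads alone, and they are too narrow if PCR copies of 1 molecule were counted as separate reads. Over 3 libraries each, the mean share with its SD was 1.89% ± 0.706 for Bull1 and 0.476% ± 0.136 for Bull2 (n = 3), and the lowest library of Bull1 was above the highest of Bull2. The 16S values that chose the range are the largest part of this share, so it is a description without a test. Without the 16S rRNA the mean share was 0.532% ± 0.197 in Bull1 and 0.189% ± 0.034 in Bull2. In bulk RNA fewer cells of a type and less RNA per cell cannot be told apart.

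The makeup of these reads is given as a description, without a test, because the 16S values that chose the range are the largest part of them. The 16S rRNA made up 71.4% to 72.5% of the reads on the 19 genes in the libraries of Bull1 and 52.9% to 65.6% in those of Bull2. The 10 protein genes together made up 15.9% to 17.4% in Bull1 and 23.0% to 33.6% in Bull2. The 12S rRNA was closer between the bulls, at 10.6% to 11.2% in Bull1 and 10.3% to 15.1% in Bull2, and the ranges overlapped.

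**Figure D1:**
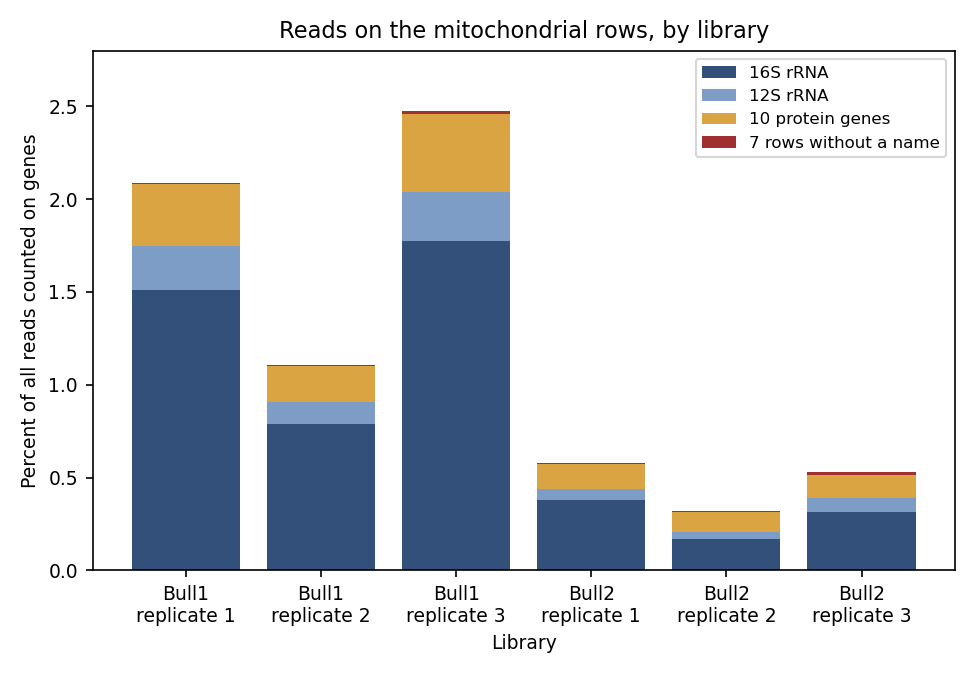
Share of all reads counted on genes (percent, y axis) that fell on the 16S rRNA, the 12S rRNA, the 10 named protein genes and the 7 genes without a name, stacked for each of the 6 libraries (x axis). The whole bar is 1.11% to 2.48% in the libraries of Bull1 and 0.320% to 0.577% in those of Bull2, and the 16S rRNA is the largest part of each.

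The 16S rRNA, the RNA of the large mitochondrial ribosomal subunit, had the highest mean FPKM of all 21070 genes over the 6 libraries. Its level was 9630 FPKM in Bull1 replicate 1 from 9631 reads, 5028 FPKM in replicate 2 from 4501 reads and 11282 FPKM in replicate 3 from 12087 reads. In Bull2 it was 2407 FPKM from 2423 reads, 1080 FPKM from 988 reads and 1991 FPKM from 1522 reads in replicates 1, 2 and 3. Replicate 2 was the lowest library of each bull, and the lowest library of Bull1 was above the highest of Bull2. Bull1 had a mean of 8647 ± 3241 FPKM and Bull2 one of 1826 ± 679 FPKM (SD of 3 libraries), a ratio of 4.74. The log2 fold change of log2(FPKM + 1), Bull1 against Bull2 (log2FC), was 2.24 with a standard error of 0.37. The median log2FC of the 19339 genes tested was -0.29, so the 16S rRNA stood 2.53 above it. The coefficient of variation between the libraries was 37.5% in Bull1 and 37.2% in Bull2, against 1.07% and 2.47% from counting error. That counting error takes each read as a separate molecule. The RNA was amplified, so the number of molecules behind the reads is not known and may limit this value.

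The 12S rRNA, the RNA of the small ribosomal subunit, was the second named gene in every library. It had 2459, 1231 and 2785 FPKM in replicates 1, 2 and 3 of Bull1 from 1495, 670 and 1814 reads, and 623, 396 and 835 FPKM in those of Bull2 from 381, 220 and 388 reads. Replicate 2 was again the lowest library of each bull, and the bulls did not overlap. Its mean was 2159 ± 820 FPKM in Bull1 and 618 ± 220 FPKM in Bull2, a ratio of 3.49. Its log2FC was 1.78 ± 0.38 (here and in what follows ± is the standard error for a log2FC and the SD of 3 libraries for FPKM), with an unadjusted p = 0.00111 and an adjusted p = 0.397 in limma. The level of the 16S rRNA was 3.92, 4.08 and 4.05 times that of the 12S rRNA in Bull1, and 3.87, 2.73 and 2.38 times in Bull2. The ratio was thus nearly the same in the 3 libraries of Bull1 and varied among those of Bull2.

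**Figure D2:**
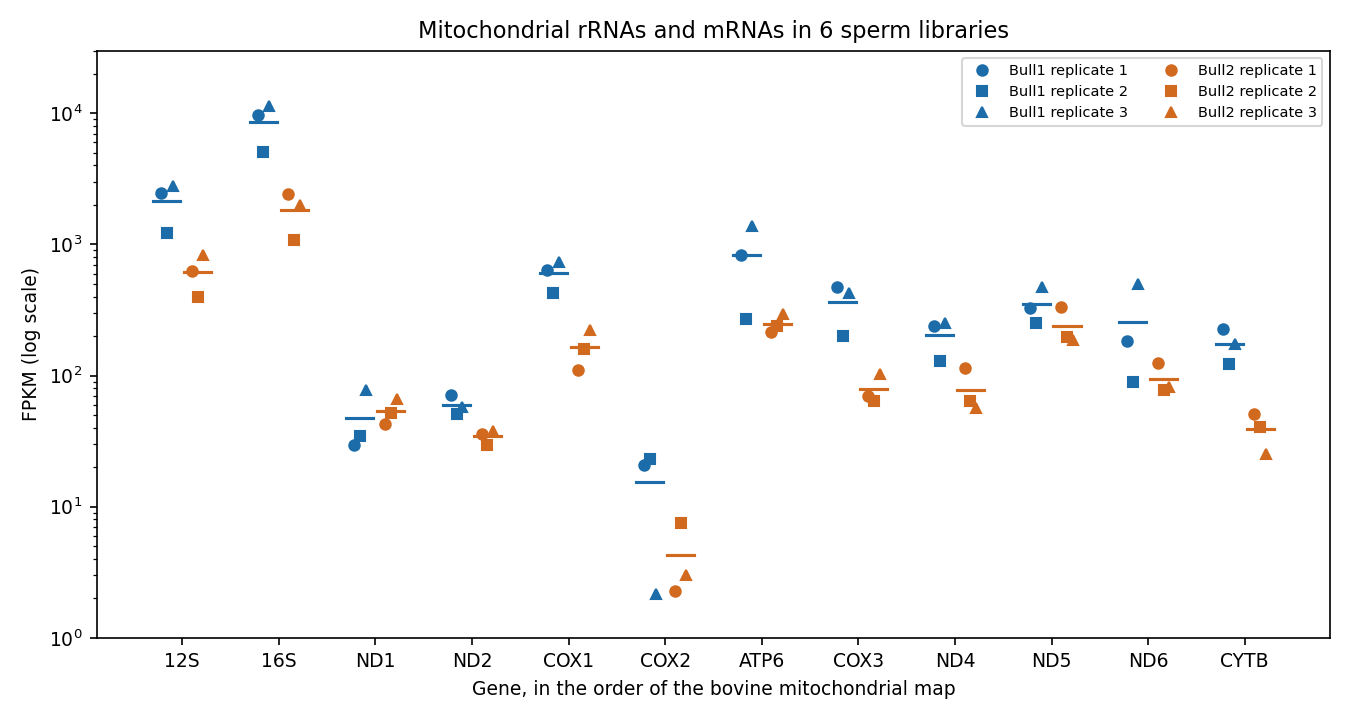
FPKM on a log scale (y axis) of the 12 genes named by length, in the order of the mitochondrial map (x axis), in each library of Bull1 (blue) and Bull2 (orange), with a line at the mean of each bull (n = 3). The 16S rRNA is highest and COX2 lowest in all 6 libraries, and the bulls do not overlap for the 12S and 16S rRNA, ND2, COX1, COX3, ND4 and CYTB.

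Besides the 16S rRNA, 18 genes of the range were tested in limma, all with a mean FPKM of at least 1. An adjusted p-value under 0.05 was found for 0 of the 18, and for 0% of all 19339 genes tested. Before adjustment the limma p-value was under 0.05 for 6 of the 18 genes, 33.3%, against 5.26% of all genes. All 6 were higher in Bull1, where 1.71% of all genes were, and 0 were lower, where 3.55% of all genes were. They were the 12S rRNA, COX1, COX3, CYTB, ND4 and ATP6. The libraries of the bulls did not overlap in 6 of the 18 genes, 33.3%, all higher in Bull1, against 3.3% of all genes. These were the 12S rRNA, ND2, COX1, COX3, ND4 and CYTB, and for each of them the exact permutation test (two-sided) of the mean FPKM gave p = 0.1, the smallest that 3 libraries against 3 allow. In the opposite direction 0 of the 18 genes were without overlap, against 6.43% of all genes. The log2FC was above 0 in 14 of the 18 genes and in 40.6% of all genes, and its median was 0.97 for the 18 genes and -0.29 for all genes. Within the 18 the median was 1.40 for the 11 genes named by length and 0.08 for the 7 without a name. The 18 genes lie on 1 transcribed genome with the 16S rRNA or beside it in the identifiers, and they are not independent of it.

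COX1, the catalytic subunit of cytochrome c oxidase, was at 644, 429 and 733 FPKM in replicates 1, 2 and 3 of Bull1 from 633, 378 and 772 reads. In Bull2 it was at 111, 159 and 222 FPKM from 110, 143 and 167 reads. Every library of Bull1 was above every library of Bull2, with means of 602 ± 156 and 164 ± 55.7 FPKM, a ratio of 3.67. Its log2FC was 1.89 ± 0.37 (unadjusted p = 0.000623 and adjusted p = 0.309 in limma). This was the smallest adjusted p-value of the 18 genes.

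COX3, another core subunit of the same complex, had a lower level than COX1 in every library. It had 473, 199.98 and 426 FPKM in Bull1 from 235, 89 and 227 reads, and 69.95, 63.8 and 103 FPKM in Bull2 from 35, 29 and 39 reads. The bulls did not overlap, and the ratio of the means, 366 ± 146 and 78.8 ± 20.9 FPKM, was 4.65. Its log2FC was 2.14 ± 0.44 (adjusted p in limma, 0.362). The level of COX1 was 1.36 to 2.49 times that of COX3 in the 6 libraries.

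COX2, the subunit that takes electrons from cytochrome c, stood far below COX1 and COX3. Its 20.7, 23.1 and 2.14 FPKM in Bull1 came from 9, 9 and 1 reads, and its 2.28, 7.53 and 3.004 FPKM in Bull2 from 1, 3 and 1 reads. Replicate 3 of Bull1, the highest library for COX1 and ATP6, was the lowest of the 6 for COX2, and the bulls overlapped. The log2FC was 1.29 ± 1.28 (adjusted p in limma, 0.825), and with 24 reads in all a difference between the bulls was not detectable at this depth. The log2FC of COX2 was 2.24 without Bull1 replicate 3, 0.78 without Bull1 replicate 2, 0.85 without Bull1 replicate 1 and 2.06 after quantile normalization. On the mitochondrial map COX2 lies between COX1 and ATP6, with tRNA genes and ATP8 between them. The level of COX1 was 18.6 to 342 times that of COX2, and that of ATP6 11.6 to 644 times. Both were highest in Bull1 replicate 3, where COX2 rested on 1 read, so the upper ends are uncertain.

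ATP6, which forms part of the proton channel of ATP synthase, was the highest protein gene by mean FPKM in each bull. It was at 833, 268 and 1380 FPKM in Bull1 from 361, 104 and 641 reads, and at 213, 239.6 and 293 FPKM in Bull2 from 93, 95 and 97 reads. The Bull2 libraries lay close together, whereas replicate 2 of Bull1 was below replicate 3 of Bull2, so that the bulls overlapped. The means were 827 ± 556 and 248 ± 40.5 FPKM, a ratio of 3.33, and the log2FC was 1.45 ± 0.54 (unadjusted p = 0.0243 and adjusted p = 0.825 in limma, exact two-sided permutation p = 0.2). Without Bull1 replicate 3 the log2FC of ATP6 was 0.94, and without Bull1 replicate 2 it was 2.12.

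CYTB, the catalytic core of complex III, had 227, 122 and 175 FPKM in Bull1 from 165, 79 and 136 reads. It had 50.7, 40.7 and 25.2 FPKM in Bull2 from 37, 27 and 14 reads. No library of Bull2 reached the lowest of Bull1. The means were 175 ± 52.9 and 38.9 ± 12.8 FPKM, a ratio of 4.49, and the log2FC was 2.15 ± 0.48 (unadjusted p = 0.00162 and adjusted p = 0.473 in limma).

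The log2FC of the 5 genes of complex I ran from -0.28 to 1.40. ND4, a proton-pumping subunit, had 237, 129 and 250.1 FPKM in Bull1 from 208, 101 and 235 reads and 113, 63.6 and 56.7 FPKM in Bull2 from 100, 51 and 38 reads, without overlap. The log2FC of ND4 was 1.40 ± 0.46 (unadjusted p = 0.0140 and adjusted p = 0.825 in limma). ND2, a further proton-pumping subunit, had 70.9, 50.5 and 57.7 FPKM in Bull1 from 47, 30 and 41 reads and 35.95, 29.7 and 37.5 FPKM in Bull2 from 24, 18 and 19 reads, also without overlap. For ND2 the log2FC was 0.77 ± 0.51 (adjusted p in limma, 0.825).

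ND5, the largest of these subunits and again a proton pump, was at 328, 252 and 475 FPKM in Bull1 from 380, 261 and 590 reads and at 335, 196 and 186 FPKM in Bull2 from 391, 208 and 165 reads. Replicate 1 of Bull2 was above replicates 1 and 2 of Bull1. The log2FC of ND5 was 0.56 ± 0.38 (adjusted p in limma, 0.825). Without Bull1 replicate 3 it was 0.32, and after quantile normalization 0.29. The level of COX1 was 1.96, 1.71 and 1.54 times that of ND5 in Bull1, and 0.332, 0.810 and 1.19 times in Bull2.

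ND6 is the protein gene that lies on the opposite strand from the others. It had 184, 89.7 and 499.9 FPKM in Bull1 from 62, 27 and 180 reads and 124, 78.1 and 81.7 FPKM in Bull2 from 42, 24 and 21 reads. Replicate 3 of Bull1 was far above the other libraries, which overlapped between the bulls, and without it the log2FC fell from 1.12 to 0.47. ND6 overlaps the end of ND5, and whether the counting used strand is not given in the sources used here. Smart-seq2 libraries do not mark strand.

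ND1, the subunit next to the quinone site of complex I, was the named gene without a higher level in Bull1. Its 29.6, 34.9 and 78.2 FPKM in Bull1 came from 18, 19 and 51 reads, and its 42.5, 52.1 and 66.6 FPKM in Bull2 from 26, 29 and 31 reads. The means of 47.6 ± 26.7 and 53.7 ± 12.2 FPKM differed by less than the spread between the libraries, with a log2FC of -0.28 ± 0.58 (adjusted p in limma, 0.936). Relative to the median of all genes its log2FC was 0.01. On that scale it was -0.51 without Bull1 replicate 3 and 0.32 without Bull1 replicate 1, so its side of the median rested on single libraries. ND1 follows the 16S rRNA on the map with a single tRNA gene between them. The level of the 16S rRNA was 326, 144 and 144 times that of ND1 in Bull1 and 56.7, 20.7 and 29.9 times in Bull2.

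**Figure D3:**
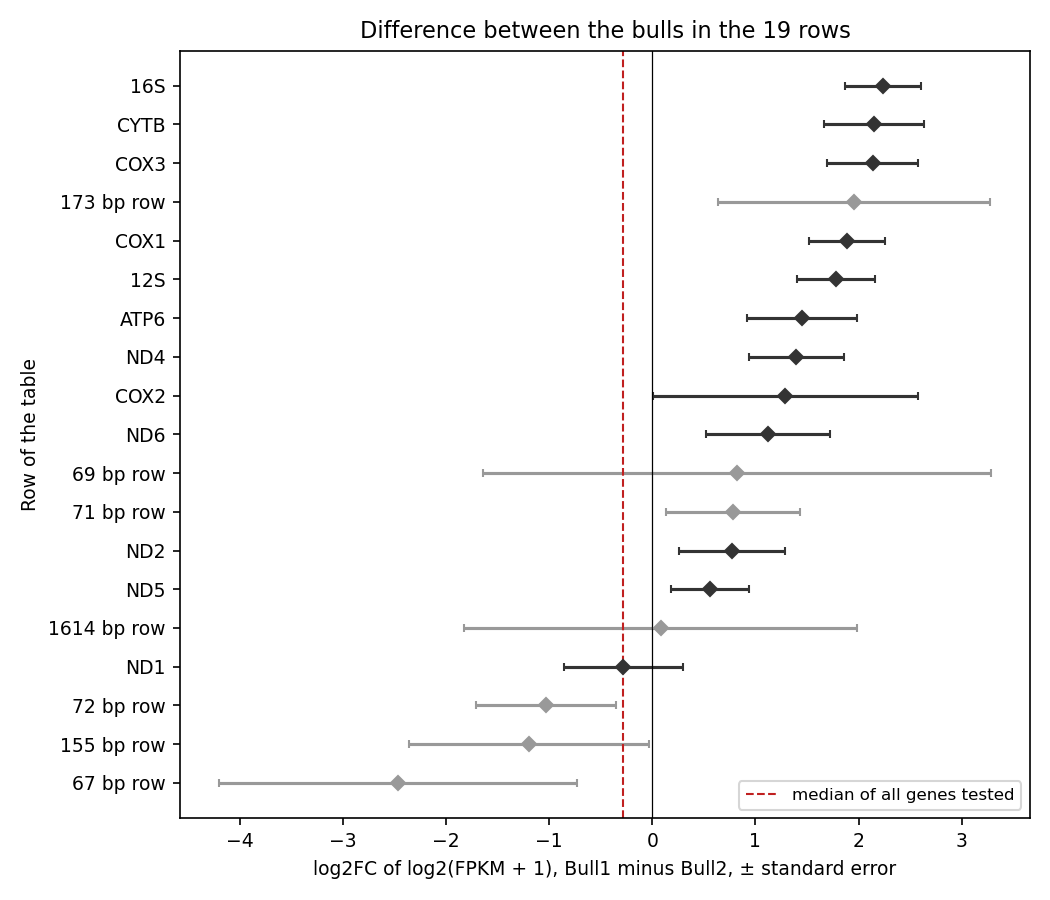
log2FC of log2(FPKM + 1), Bull1 minus Bull2, with its standard error (x axis) for the 19 genes (y axis), named genes in black and genes without a name in grey, labelled by recovered length. The 16S rRNA, CYTB and COX3 lie above 2, and ND1 lies at the median of all genes tested (dashed line, -0.29). The genes with the fewest reads, long or short, have the widest errors.

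The levels were also set against the 16S rRNA of the same library. ND1 was at 0.307% to 0.694% of the 16S FPKM in Bull1 and at 1.76% to 4.82% in Bull2. ND2 was at 0.511% to 1.005% in Bull1 and 1.49% to 2.75% in Bull2. ND5 was at 3.40% to 5.00% in Bull1 and 9.35% to 18.2% in Bull2. For these 3 genes, and for ND4 and the 12S rRNA, every library of Bull2 had the higher ratio. The 12S rRNA was only narrowly apart, at 24.5% to 25.5% in Bull1 and 25.9% to 41.9% in Bull2. COX1, COX2, COX3, ATP6, ND6 and CYTB overlapped between the bulls on this scale. CYTB was at 2.11% ± 0.485 of the 16S FPKM in the libraries of Bull1 (SD, n = 3), where those of Bull2 gave 2.38% ± 1.27, and COX3 at 4.22% ± 0.603 and 4.65% ± 1.56. These ratios contain the 16S values that chose the range, and no test was made.

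**Figure D4:**
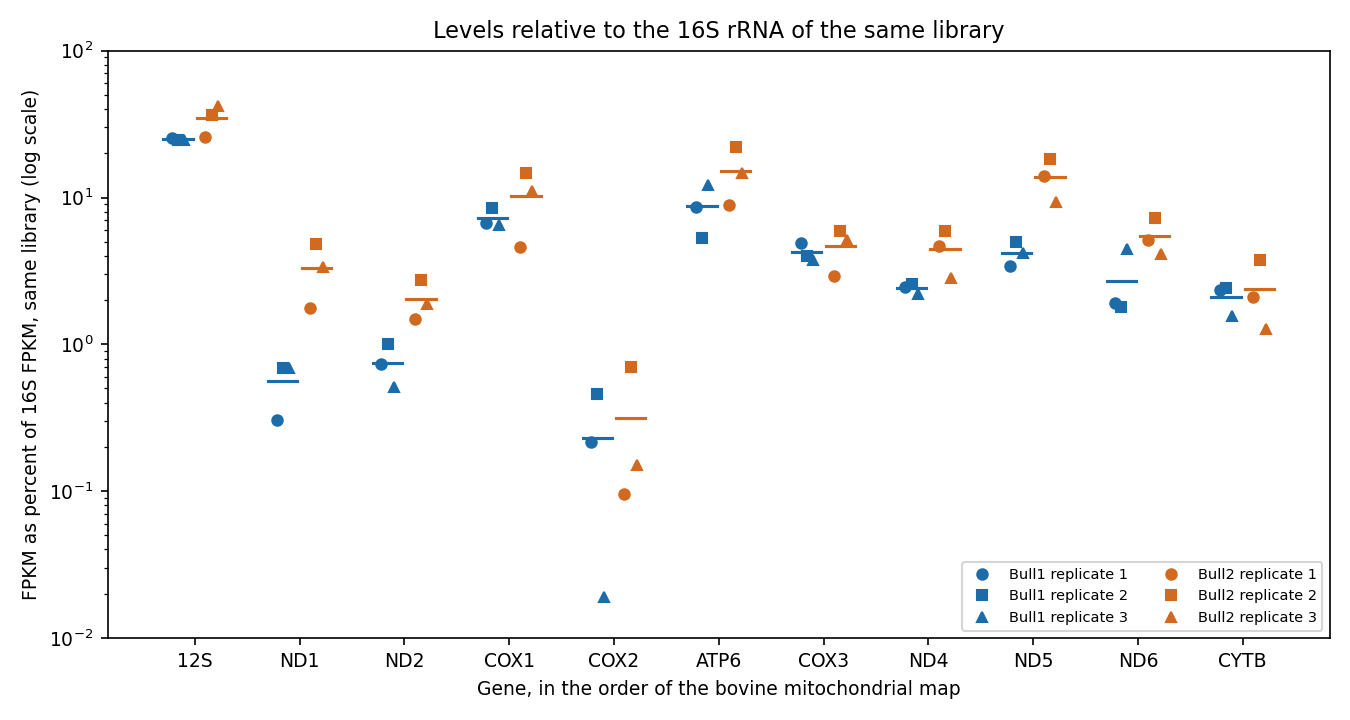
FPKM of 11 named genes as a percentage of the 16S FPKM of the same library on a log scale (y axis), in map order (x axis), for each library of Bull1 (blue) and Bull2 (orange), with a line at the mean of each bull (n = 3). ND1, ND2, ND4, ND5 and the 12S rRNA are higher in each library of Bull2, whereas CYTB and COX3 overlap.

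The order of the 12 named genes was similar in all libraries. The 16S rRNA came first, the 12S rRNA second and COX2 last in each of the 6. ATP6 was the third in 4 libraries, COX1 in Bull1 replicate 2 and ND5 in Bull2 replicate 1. ND4, ND6 and COX3 changed places between libraries, and their values overlapped. Across the 12 genes Spearman's rho was 0.916 to 0.986 for pairs of libraries within Bull1, 0.860 to 0.972 within Bull2 and 0.832 to 0.972 between the bulls. Over all genes tested it was 0.440 to 0.493 within Bull1, 0.548 to 0.594 within Bull2 and 0.445 to 0.553 between the bulls. The 12 genes span a wide range of levels and share their library, so these correlations are a description. Within Bull1, replicate 2 was the lowest library for 10 of the 12 genes and replicate 3 the highest for 8. Within Bull2 no library was the lowest for more than 5 genes.

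The 7 genes without a name held 31 to 110 reads per library together. Of these, 4 had lengths in the range of mitochondrial tRNAs, 60 to 75 bp, which is shorter than the 250-base reads, and how reads that cover neighbouring genes were counted is not given in the sources used here. The gene of 72 bp (ENSBTAG00000043565) has the length of 1 of the 22 tRNA genes, in the tRNA cluster between ND1 and ND2. It had 13, 3 and 28 reads in Bull1, or 284, 73.1 and 570.3 FPKM, and 19, 14 and 26 reads in Bull2, or 412, 334 and 742 FPKM. The bulls overlapped, and its log2FC was -1.03 ± 0.68 (adjusted p in limma, 0.825).

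The gene of 71 bp (ENSBTAG00000043545) has a length that 2 tRNA genes share. It had 17, 23 and 17 reads in Bull1, or 376, 568 and 351 FPKM, and 5, 7 and 27 reads in Bull2, or 109.9, 169 and 781 FPKM. Replicate 3 of Bull2 was the highest of the 6 libraries and the other libraries of Bull2 were the lowest. The gene had a log2FC of 0.79 ± 0.65 (adjusted p in limma, 0.825). The genes of 67 bp (ENSBTAG00000043548) and 69 bp (ENSBTAG00000043583) have lengths shared by 5 and 8 tRNA genes and held 32 and 12 reads over all libraries, with 0 reads in 1 library and in 4 libraries.

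The gene ENSBTAG00000043568 had a recovered length of 173 bp, from 6, 2 and 2 reads in Bull1 and 3, 0 and 1 reads in Bull2. This length is a divisor of the 346 bp of ND3, which would apply if each of its read numbers were doubled, and the gene was not named. ENSBTAG00000043581 had 1614 bp, which is no mitochondrial length, and 60 of its 73 reads were in Bull1 replicate 3. ENSBTAG00000043553 was above 0 in Bull2 replicate 2 alone, at 10.98 FPKM, which 1 read over 155 bp gives within 0.01 read and 5 reads over 782 bp within 0.0001 read. Where a library had 0 reads, a count of 0 allows up to 3 reads, which is 78.6 FPKM for the gene of 67 bp in Bull1 replicate 2 and 29.8 FPKM for the gene of 173 bp in Bull2 replicate 2. The genes listed just outside the range, ENSBTAG00000043542 of 103 bp and ENSBTAG00000043587 of 106 bp, had 13 and 51 reads in all, each with 3 libraries at 0 and neither of a mitochondrial length.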

How the data were processed

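Sperm RNA of 2 bulls was measured in 6 libraries, 3 per bull, prepared from 20 ng of amplified cDNA. The authors filtered the reads, mapped them to UMD3.1 with TopHat 2.0.12, counted them per gene with HTSeq 0.6.0 and deposited FPKM per library, with the replicates kept separate. For their own calls they merged the replicates, and those counts were not used here. Libraries were assigned from their labels, and 0 columns were left unassigned.

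Library totals, the smallest gene lengths and whole reads were recovered from the FPKM, with a value within 0.01 of a whole number taken as whole for the 19 genes. For genes above 0 in few libraries this tolerance accepts lengths that are too short. A tolerance of 0.0001, chosen after seeing the data, was used for the reads summed over all genes and for the fit on recovered reads. The counts of other genes with a mitochondrial length, and the genes just outside the range, kept 0.01. Some of those lengths may therefore be too short. Recovered reads came to 98.4% to 98.8% of the totals. The totals were picked among candidates in part by this closeness, so the percentage is no independent check. A common factor of length and reads gives too few reads. Lengths were compared with the mitochondrial genes of ARS-UCD2.0, another assembly. Of its coordinates, the start positions set the order of the genes on the map.

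Differences were tested on log2(FPKM + 1) with limma 3.58.1 (R 4.3.3), fitting a trend in the variances over the 19339 genes whose mean FPKM reached 1, and p-values were adjusted by Benjamini-Hochberg over all of them. In simulated libraries this test made more false calls than its nominal share. A fold change on this scale understates that of low values. All other steps were run in Python 3.11.15 (scipy 1.17.1, pandas 2.3.3, numpy 2.4.6). The genes, the lists and the tests were chosen with earlier results of these data known. The genes given with all library values are those named by length and the 2 others with the most reads. Alternatives were a pseudocount of 0.1, other filters and scalings, reads scaled by the library total without division by length, no variance trend, the replicate block and leaving out each library. Libraries with the same replicate number were not paired. Lists of sperm, somatic and nuclear mitochondrial genes were not run, since identifiers could not be paired with symbols.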

Additional observations from a re-analysis of the deposited data

How the results depend on the processing

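The log2FC of the 16S rRNA, 2.24, lay between 1.90 and 2.59 over the 6 fits that each left out 1 library and was 1.54 after quantile normalization, which also moved the median of all genes from -0.29 to -0.02. The number of the other 18 genes with an unadjusted limma p-value under 0.05, 6, was from 4 to 7 over all alternatives and from 5 to 7 over those that left out a library. None had an adjusted p-value under 0.05, except in the limma fit on recovered reads scaled by the library total, where 2 did, the 12S rRNA and COX1. That fit took an unbounded prior, which set the SD of the 12S rRNA to 0.232 where its own libraries gave 0.590, so its p-values are not reliable. The smallest adjusted p-value of a named gene in the other fits that changed the log2FC was 0.108. The number of genes higher in Bull1, 14 of 18, was from 12 to 14 on leaving out a library. The 12 were out of 17 genes tested, in the fit without Bull2 replicate 2. In any alternative, 0 named genes changed direction.

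Libraries of the same replicate number did not deviate together from the bull means, with correlations of -0.0084, 0.034 and 0.023, so the numbers gave no pairing. Under the replicate block 0 of the 18 genes had an adjusted p-value below 0.05 and 7 an unadjusted one.

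The share of reads on the 19 genes was from 1.60% to 2.28% in Bull1 and from 0.425% to 0.553% in Bull2 on leaving out a library. Without the 16S rRNA it was 0.532% and 0.189%, since most of the reads were left out. As a share of summed FPKM it was 2.31% in Bull1 and 0.728% in Bull2. Of the 19 lengths, 18 were kept at tolerances of 0.002 and 0.0001 and 14 at 0.05, where COX2 had 681 bp, the length of ATP6, and ND2 1041 bp, so that neither would have been given its name. In Bull2 the spread of COX2 and ND2 between libraries was below counting error (66.6% against 77.5% and 12.04% against 22.2%).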
